A study of Mus musculus with 12 samples.

Results

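The 10 genes described here encode the enzymes that make serine and asparagine and that pass one-carbon units from serine into the folate cycle. They were chosen by name for their place in the pathway, with earlier results of these data known, and are 10 of the 52535 genes listed in the count data. Phgdh, Psat1 and Psph make serine, Shmt1 and Mthfd1 form the cytosolic folate branch, Shmt2, Mthfd2, Mthfd1l and Aldh1l2 form the mitochondrial branch, and Asns makes asparagine. By compartment, 6 are cytosolic and 4 are mitochondrial. All 10 were found in the data.

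Messenger RNA was sequenced from 3 mouse T-cell acute lymphoblastic leukaemia (T-ALL) lines, 240, 242 and 352, each in a control and a treated culture. The 6 libraries were each run in 2 lanes, and a group holds 3 libraries, 1 from each line. All cells in both groups, controls included, carry the Akt2 and Dlx5 transgenes, which according to the study are driven in T cells by the Lck promoter, the Akt2 form being myristoylated and so constitutively active. Control cells received placebo, as the study describes. Treated cells received PKF118-310, a small molecule that keeps β-catenin from binding Tcf proteins. Each line comes from the lymphoma of 1 double transgenic mouse, so a line stands for 1 animal. The labels give no age, dose or treatment time.

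Serine is made from the glycolytic intermediate 3-phosphoglycerate in a chain of 3 reactions, and serine hydroxymethyltransferase then moves a carbon from serine to tetrahydrofolate, leaving glycine. The carbon is oxidised and reduced by parallel sets of enzymes in the cytosol and in mitochondria, and it is used for purines, thymidylate and methionine. Dividing T cells and many leukaemias draw heavily on this pathway, and several of its genes, with Asns, are known targets of the stress-responsive transcription factor ATF4.

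The libraries differed in depth. Total counts were between 3160824 and 13766638 in 5 libraries and 604984 in the treated library of line 242. That library also had 11.8% of its counts on mitochondrially encoded genes, against 1.84% to 3.10% in the others. It had 21241 genes with at least 1 count, against 14175 in the control of the same line. Such a rise after treatment was also seen in line 240, from 15150 to 18155 genes, and in line 352, from 17495 to 21049. Each fitted change of a member tested over 3 lines is therefore given with and without line 242. The part these properties have in the values of line 242 was not tested. All 10 T-lineage markers were present, at a summed 2964 to 4995 CPM (a gene's counts relative to its library's total) in controls and 1979 to 5038 in treated cells. The 3 B-cell markers reached at most 0.248 CPM in controls and 3.31 CPM in treated cells, and the 3 erythroid markers at most 0.151 and 0.316 CPM. Hbb-bs, of red cells, and Lyz2, of myeloid cells, were at 0 in every library. The 4 myeloid markers summed to 10.4 to 45.2 CPM in controls and 9.81 to 41.3 CPM in treated cells, and the 4 markers of stroma, vessels and epithelium to 42.6 to 72.8 and 45.2 to 63.5 CPM. Within that sum, treated line 242 had 14 counts of Col1a1 (23.1 CPM) and 11 of Epcam (18.2 CPM), against 0 of both in its control, and 16.5 CPM of Pecam1 against 42.3. The part of these markers in the values of line 242 was not tested. In such bulk RNA, fewer cells that express a gene and less RNA of that gene per cell cannot be told apart.

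The promoters of 9 of the 10 members were found in the RefSeq table for GRCm38.p6, in 10 windows that run from 250 bases before to 50 bases after the transcript start. Of 4 motifs searched on both strands, TGATGNAA, the composite element bound by C/EBP and ATF4, was in the window of Asns alone among the members and in 3.97% of all 32851 windows. TGACNNNGC, the core of the antioxidant response element, was in 3 windows, those of Phgdh, Psph and Asns, and in 12.4% of all windows. The E-box CACGTG, in 7.15% of all windows, and the Tcf core CTTTGA, in 16.0%, were in 0 of the 10 member windows. The windows of Psat1, Shmt1 and Mthfd2 lie wholly inside those genes as the count data place them. On the minus strand they reach up to 15925309, 60811515 and 83317854, while the genes start there at 15947337, 60811718 and 83325908. Those starts in the count data were not searched. The G and C content of the member windows was 42.7% to 66.7%, against a median of 52.7% over all windows, and no match overlapped another. The Asns and Phgdh stretches are shown because they hold the matches discussed, with the matched bases in capitals and read 5′ to 3′ on the minus strand. The TGACNNNGC matches lie on the opposite strand and so read as their reverse complement.
Asns, chr6:7693255-7693429: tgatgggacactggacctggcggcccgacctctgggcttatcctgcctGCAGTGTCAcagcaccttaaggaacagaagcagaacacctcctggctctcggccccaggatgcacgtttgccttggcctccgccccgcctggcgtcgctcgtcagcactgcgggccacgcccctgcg
Asns, chr6:7693214-7693243: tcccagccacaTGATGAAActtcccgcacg
Phgdh, chr3:98339991-98340049: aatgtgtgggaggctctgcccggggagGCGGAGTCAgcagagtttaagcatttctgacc
The second Asns stretch holds TGATGAAA, 23 to 16 bases before the RefSeq start. It lies past the start of Asns as the count data place it, which is 45 bases further upstream. A match is a description of letters and says nothing of binding in these cells.

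Over the 3 lines, 0 of the 9 members tested passed the threshold of an adjusted p below 0.05 for PKF118-310 against control, and 0 of 10331 genes did, 0.0% (edgeR's quasi-likelihood test with the line as a block). At an unadjusted p below 0.05 there was 1 member, Psat1, and 570 genes. DESeq2, edgeR's likelihood ratio test and limma voom with sample weights called 0 members in the 3 lines too. Over the genes given an adjusted p, 10130 with DESeq2 and 10331 with the others, they called 0.444%, 0.823% and 7.75%. In lines 240 and 352 alone, 3 of 10 members passed: Mthfd1 and Shmt1, both cytosolic folate enzymes, rose and Mthfd1l, a mitochondrial one, fell. In that fit 10.9% of the 11760 genes passed, 5.01% higher and 5.92% lower. DESeq2's test called 3.01% of the 8796 genes to which it gave an adjusted p in these lines, and Aldh1l2 was given none. By that test 0 of the members passed, and without the line as a block 0 members and 0.0% of genes did. The members together made up 0.167%, 0.153% and 0.175% of all counts in the controls of lines 240, 242 and 352, and 0.179%, 0.0835% and 0.173% in the treated cells.

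**Figure D1:**
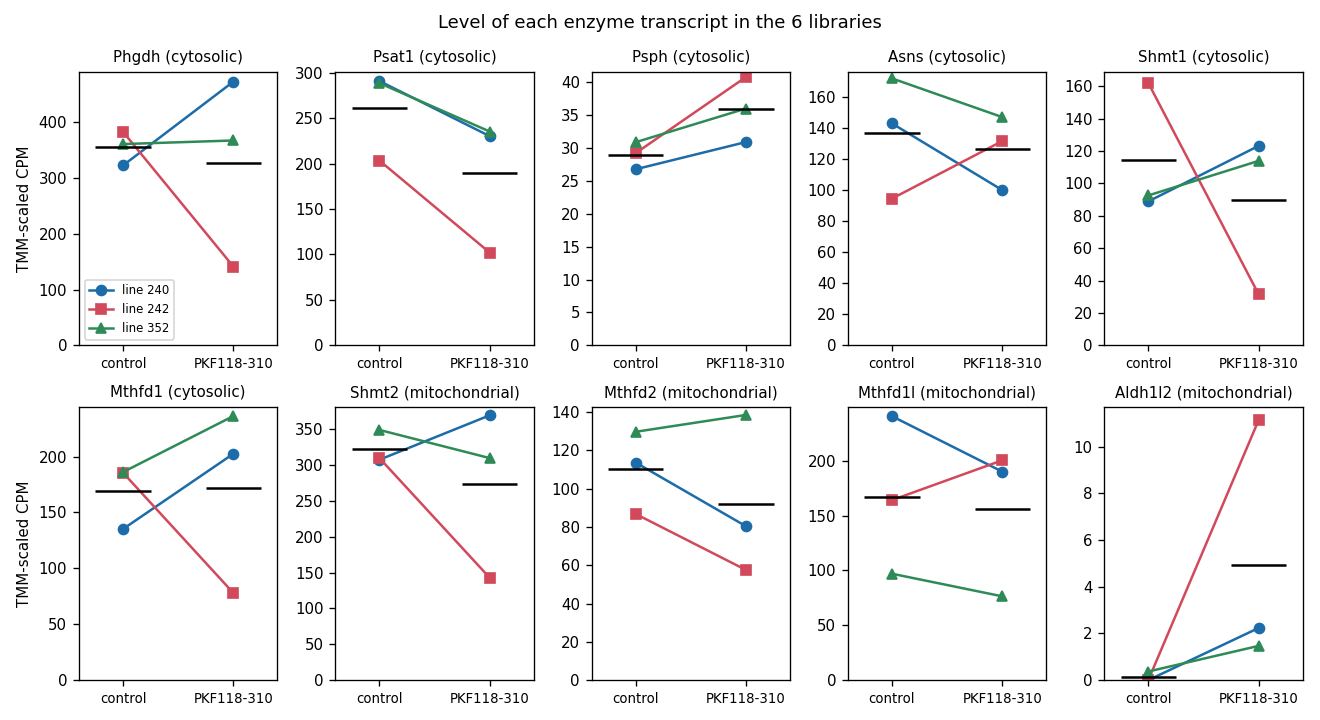
Level of each of the 10 enzyme transcripts in TMM-scaled CPM (y axis, from 0, own scale per panel) in control and PKF118-310 libraries (x axis), with 1 point per library, a line joining the 2 libraries of a cell line and a black bar at the mean of 3. In line 242, Phgdh, Shmt1, Shmt2 and Mthfd1 slope down steeply, while Psat1 slopes down and Psph up in all 3 lines.

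Phgdh, on the minus strand of chromosome 3 (98313170 to 98339990, mm10), encodes the first and committing enzyme of serine synthesis. Its level, in CPM scaled between libraries by TMM, was 322, 382 and 361 in the controls of lines 240, 242 and 352, and 472, 141 and 367 in the treated cells. Treated line 240 was the highest of the 6 libraries and treated line 242 the lowest, so the treated values enclose all the controls. The means were 355 ± 30.4 CPM in controls and 327 ± 169 CPM in treated cells (SD, n = 3 each). Within line 240 the log2 ratio of treated to control was 0.55, with a 95% interval for counting error of 0.44 to 0.66. In line 242 it was -1.44 (-1.79 to -1.10), where 1216 control counts stood against 76 treated ones. In line 352 it was 0.03 (-0.03 to 0.08), so no difference was detectable there at 4887 and 5254 counts of Phgdh. The fitted log2 fold change was -0.23 ± 0.41 over 3 lines (SE, edgeR adjusted p = 0.944). Without line 242 it was 0.28 ± 0.13 (adjusted p = 0.215).

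Psat1, on chromosome 19 (15904678 to 15947337, minus strand), encodes the aminotransferase of the second step. The controls had 291, 203 and 289 CPM in lines 240, 242 and 352, and the treated cells 230, 102 and 235 CPM. Psat1 was lower after treatment in 3 of 3 lines, by a log2 ratio of -0.34 (-0.47 to -0.20), -0.995 (-1.42 to -0.60) and -0.29 (-0.36 to -0.23), each beyond counting error. The groups overlapped, because the control of line 242 lay below both other treated libraries. The fitted change of -0.51 ± 0.20 over 3 lines did not pass after adjustment over all genes (edgeR adjusted p = 0.842), nor did -0.32 ± 0.11 in lines 240 and 352 (adjusted p = 0.0776). The 95% intervals of these fits were -1.03 to -0.002 and -0.55 to -0.09.

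Psph, on chromosome 5 (129765558 to 129787449, minus strand), encodes the phosphatase that releases serine in the last step. It had 26.8, 29.2 and 30.9 CPM in the controls and 30.9, 40.8 and 36.0 CPM in the treated cells of lines 240, 242 and 352. Psph was higher after treatment in 3 of 3 lines, and of the 9 members tested it was the one whose groups did not overlap, by the narrowest margin, 30.91 against 30.94 CPM. Over all genes tested, 6.17% had groups that do not overlap. The within-line log2 ratios were 0.21 (-0.20 to 0.62), 0.48 (-0.26 to 1.16) and 0.22 (0.03 to 0.41), so the difference was beyond counting error in line 352 alone. Lanes of line 352 differed by more than counting error, so that interval is too narrow. The fitted change was 0.29 ± 0.18 over 3 lines (edgeR adjusted p = 0.843) and, without line 242, 0.21 ± 0.15 (adjusted p = 0.419). Exons of Psph overlap those of Cct6a on the other strand, which had 1511 to 7116 counts in 5 libraries and 146 in treated line 242, and the strand setting of the counting is not given in the sources used here.

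In the cytosolic folate branch, Shmt1 and Mthfd1 were higher after PKF118-310 in lines 240 and 352 and lower in line 242. Shmt1, the cytosolic serine hydroxymethyltransferase (chromosome 11, 60788104 to 60811718, minus strand), had 88.8, 162 and 92.5 CPM in the controls and 123, 31.6 and 114 CPM in the treated cells of lines 240, 242 and 352. Line 242 held both extremes, the highest control and the lowest treated value, the latter from 17 counts. The log2 ratios, in the same order, were 0.47 (0.26 to 0.68), -2.36 (-3.15 to -1.67) and 0.30 (0.19 to 0.41). Shmt1 rose in lines 240 and 352 by 0.37 ± 0.11 (edgeR adjusted p = 0.0471), while over 3 lines the value was -0.27 ± 0.55 (adjusted p = 0.958). The call of Shmt1 was also lost with a filter of at least 10 counts in every library (adjusted p = 0.0625) and in either lane alone (adjusted p = 0.0833 and 0.0856). Exons of Shmt1 overlap those of Smcr8 on the other strand, which had 76 to 1093 counts per library.

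Mthfd1, a cytosolic enzyme with 3 activities that interconverts one-carbon folates (chromosome 12, 76255298 to 76319803, plus strand), had 135, 186 and 186 CPM in the controls and 203, 77.9 and 236 CPM in the treated cells of lines 240, 242 and 352. Treated line 242, with 42 counts, was the lowest library, and both other treated libraries exceeded every control. The log2 ratios were 0.58 (0.42 to 0.75), -1.25 (-1.74 to -0.80) and 0.34 (0.27 to 0.42). Mthfd1 rose in lines 240 and 352 by 0.45 ± 0.11 (edgeR adjusted p = 0.0212), the smallest adjusted p of any member. Over 3 lines the value was -0.02 ± 0.38 (adjusted p = 0.999), with a 95% interval of -0.99 to 0.95. Leaving out line 242 thus turned the fitted change of both enzymes from negative to positive.

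**Figure D2:**
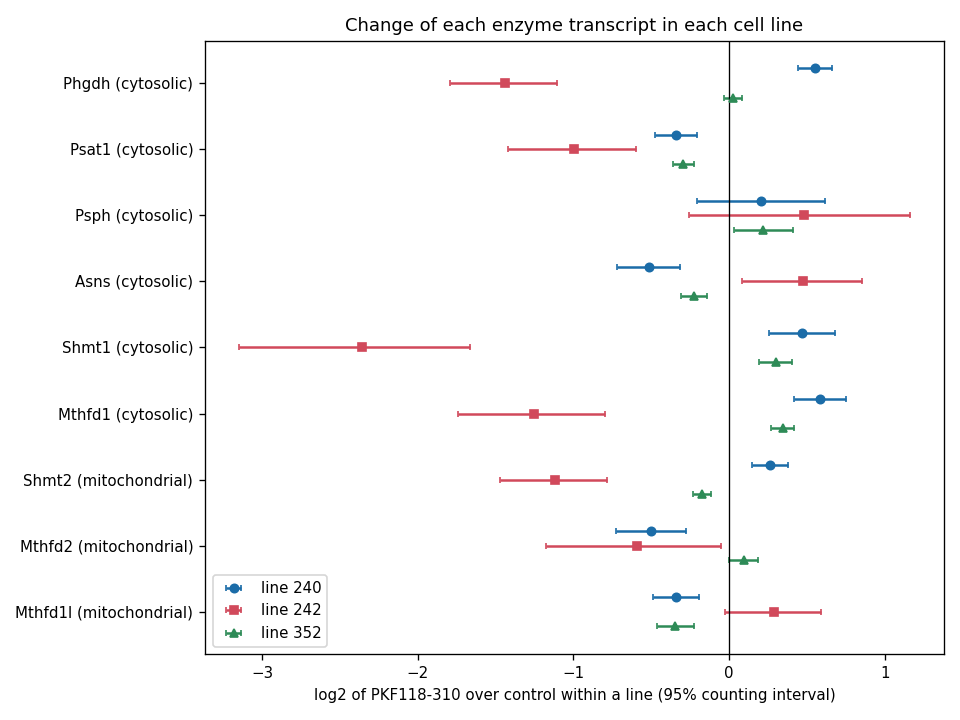
Log2 ratio of PKF118-310 over control within each line (x axis) for the 9 members tested in 3 lines (y axis, with compartment), as points per line with 95% counting intervals. Psat1 lies left of 0 in all 3 lines and Psph right of 0, and line 242 stands apart at -2.36 for Shmt1 and -1.44 for Phgdh.

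Shmt2, the mitochondrial serine hydroxymethyltransferase (chromosome 10, 127517123 to 127522444, minus strand), had 308, 310 and 349 CPM in the controls and 370, 143 and 310 CPM in the treated cells of lines 240, 242 and 352. The controls differed little from each other, at 322 ± 23.4 CPM, while the treated cells spread over 274 ± 118 CPM on both sides of them (SD, n = 3 each). Line by line, the log2 ratio was 0.26 (0.15 to 0.38), -1.12 (-1.47 to -0.78) and -0.17 (-0.23 to -0.11), so the lines deeper in counts also differed in direction. Shmt2 did not pass in either fit, with -0.31 ± 0.30 over 3 lines (edgeR adjusted p = 0.871) and, without line 242, 0.03 ± 0.13 (adjusted p = 0.899). The 95% interval of the latter was -0.24 to 0.31.

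Mthfd2, the mitochondrial dehydrogenase and cyclohydrolase that is high in proliferating cells and low in most resting adult tissues (chromosome 6, 83305691 to 83325908, minus strand), had 114, 86.8 and 129.7 CPM in the controls and 80.4, 57.5 and 138 CPM in the treated cells. It was lower in line 240, at -0.50 (-0.73 to -0.27), and in line 242, at -0.59 (-1.18 to -0.05). Line 352 was at 0.09 (0.001 to 0.19), an interval that is too narrow, since the lanes of this line differed by more than counting error. The fitted Mthfd2 change was -0.30 ± 0.19 over 3 lines (edgeR adjusted p = 0.843) and, without line 242, -0.16 ± 0.13 (adjusted p = 0.496).

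Mthfd1l, the mitochondrial formate-producing enzyme (chromosome 10, 3973118 to 4167081, plus strand), had 241, 164 and 97.0 CPM in the controls and 190.1, 200.4 and 76.4 CPM in the treated cells. Line 240 had the highest control value and line 352 the lowest value in each group, so the lines lay further apart than the groups. The log2 ratio was -0.34 in both line 240 (-0.49 to -0.19) and line 352 (-0.46 to -0.23), and 0.29 (-0.02 to 0.59) in line 242. Mthfd1l fell by 0.35 on the log2 scale in lines 240 and 352 (SE 0.10, edgeR adjusted p = 0.0466). Over 3 lines the value was -0.15 ± 0.19 (adjusted p = 0.906). The call of Mthfd1l was also lost with library totals (adjusted p = 0.0573), with at least 10 counts in every library (adjusted p = 0.0567) and in lane 2 alone (adjusted p = 0.134).

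Aldh1l2, the mitochondrial enzyme that oxidises 10-formyltetrahydrofolate (chromosome 10, 83487450 to 83534140, minus strand), was at or near 0 in controls. The controls had 0, 0 and 5 counts in lines 240, 242 and 352, and the treated libraries 7, 6 and 21 counts. Against a floor of 3 counts per library, the treated level was at least 3.0-fold higher in line 240 and at least 11.8-fold higher in line 242, taking the 7 and 6 treated counts as they stand. With counting error in the treated library included, the lower 95% limits of the log2 ratio were 0.89 and 2.80. In line 352 the log2 ratio was 1.99 (0.55 to 3.75). Aldh1l2 was too low for the 3-line test. It entered the fit of lines 240 and 352 only through the treated libraries, so that its value there, 2.56 ± 0.92 (edgeR adjusted p = 0.0978), is given as a description. Of 37385 genes with 0 counts in the control of line 240, 0.115% had at least 7 counts in the treated library. In line 242 the like share was 4.64%, 1778 of 38360 genes with at least 6 counts. In line 352, 18 of the 290 genes with 5 counts in the control, 6.21%, reached 21 or more after treatment. Exons of Aldh1l2 overlap those of D10Wsu102e on the other strand, which had 177 to 1591 counts per library and 483 and 1591 in the treated libraries of lines 240 and 352.

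Asns, which makes asparagine from aspartate and glutamine in the cytosol (chromosome 6, 7675169 to 7693254, minus strand), had 143, 94.7 and 172 CPM in the controls and 100.1, 132 and 147 CPM in the treated cells of lines 240, 242 and 352. Every treated value lay within the range of the controls. Asns was lower in line 240, at -0.52 (-0.72 to -0.31), and in line 352, at -0.23 (-0.31 to -0.14), and higher in line 242, at 0.48 (0.08 to 0.85). The gene did not pass in either fit, at -0.12 ± 0.23 over 3 lines (edgeR adjusted p = 0.955) and, without line 242, -0.36 ± 0.11 (adjusted p = 0.0579). Asns is the member whose promoter window holds TGATGNAA.

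**Figure D3:**
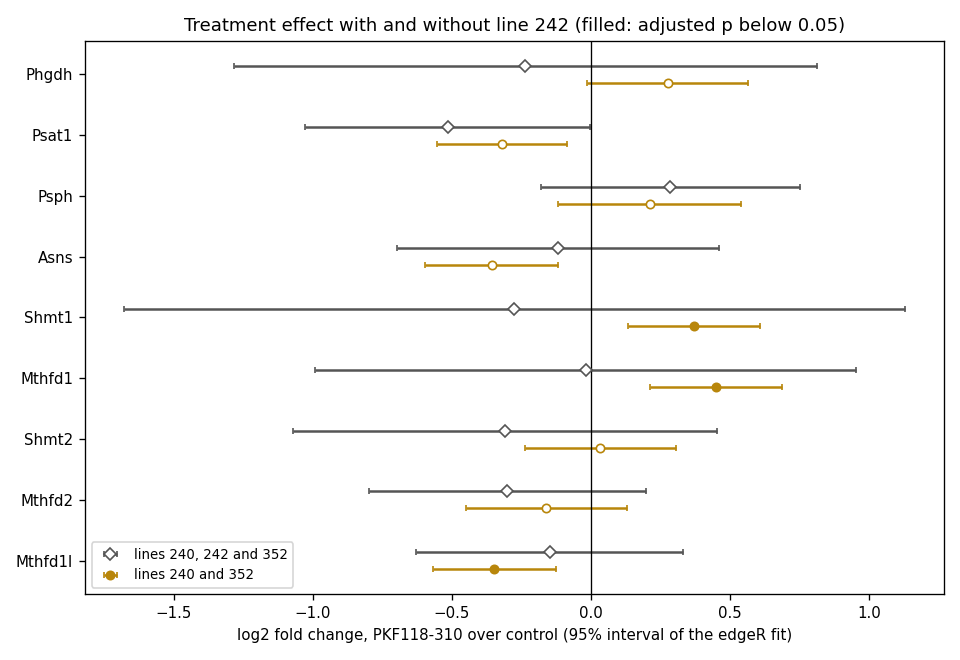
Log2 fold change of PKF118-310 over control (x axis) for the 9 members (y axis) in the fit of 3 lines (diamonds) and of lines 240 and 352 (circles), with 95% intervals of the edgeR fit. Filled circles mark an adjusted p below 0.05, which Mthfd1, Shmt1 and Mthfd1l reached in lines 240 and 352 and no member reached in 3 lines.

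By compartment, the median log2 fold change of the 6 cytosolic members was -0.18 over 3 lines and that of the 3 mitochondrial members tested was -0.30, beside 0.00 over all genes. In lines 240 and 352 the cytosolic median was 0.24 and that of Shmt2, Mthfd2 and Mthfd1l was -0.16, beside -0.01 over all genes. The cytosolic members were not alike: 4 of the 6 lay above 0, while Psat1 was at -0.32 and Asns at -0.36. Of the 6 cytosolic members, 2 rose and 0 fell past the threshold there. Of the 3 mitochondrial members that did not depend on the treated libraries to be tested, 0 rose and 1 fell. Over all genes, 5.01% rose and 5.92% fell. The cytosolic median thus changes sign with line 242, and the mitochondrial one does not.

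The balance of the branches was also compared within each library, as a ratio of counts per kilobase of exon, which does not depend on scaling between libraries. With lines in the order 240, 242 and 352, Shmt2 over Shmt1 went from 4.33 to 3.75, from 2.39 to 5.66 and from 4.71 to 3.40. The log2 changes were -0.21 (-0.44 to 0.03), 1.24 (0.47 to 2.02) and -0.47 (-0.59 to -0.35). The mitochondrial gene was the higher of this pair in all 6 libraries.

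For Mthfd2 over Mthfd1 the ratio went from 1.07 to 0.506, from 0.596 to 0.940 and from 0.888 to 0.747 in the same order of lines. The log2 changes were -1.08 (-1.36 to -0.81), 0.66 (-0.04 to 1.36) and -0.25 (-0.37 to -0.13). For Mthfd1l over Mthfd1 it went from 1.78 to 0.940, from 0.886 to 2.58 and from 0.522 to 0.324, with log2 changes of -0.92 (-1.14 to -0.70), 1.54 (0.998 to 2.08) and -0.69 (-0.83 to -0.55). All 3 ratios were thus lower after treatment in lines 240 and 352 and higher in line 242, and the interval reached 0 for Shmt2 over Shmt1 in line 240 and for Mthfd2 over Mthfd1 in line 242, where the change was 0.21 in lane 1 and 1.12 in lane 2. These intervals cover counting error alone, with 1 library per line and group, and 2 of the 3 ratios share Mthfd1.

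**Figure D4:**
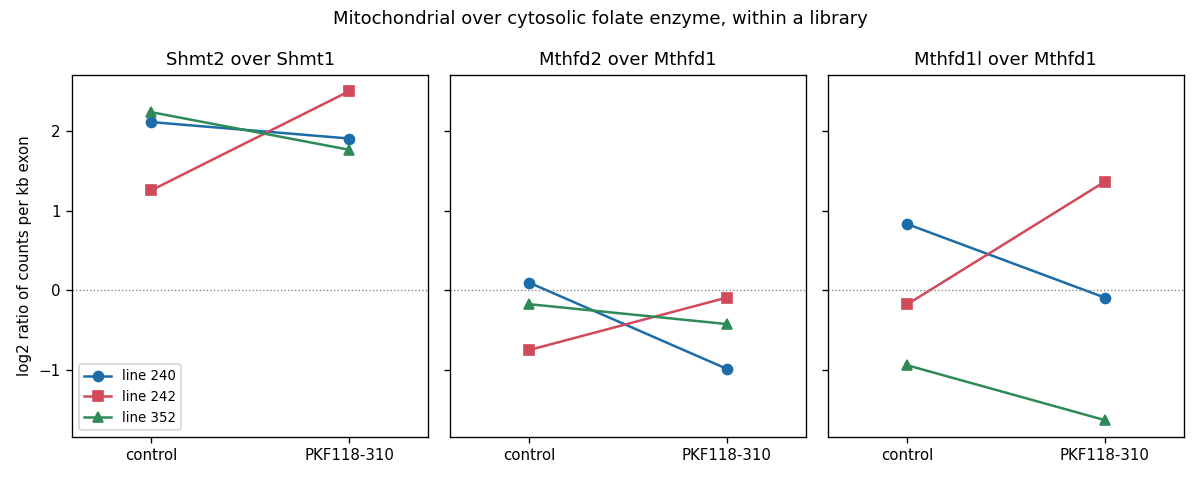
Log2 ratio of a mitochondrial over a cytosolic folate enzyme, in counts per kilobase of exon (y axis), in control and PKF118-310 libraries (x axis), with 1 point per library joined within a line. Lines 240 and 352 slope down in all 3 panels and line 242 slopes up.

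Per kilobase of exon, the order of levels in controls was led by Phgdh, at 143 ± 12.2 CPM per kilobase, and Shmt2, at 104 ± 7.51 (SD, n = 3). Psat1 had 61.4 ± 11.7, Asns 49.97 ± 14.3, Mthfd1 38.0 ± 6.58, Mthfd1l 37.7 ± 16.2, Mthfd2 31.6 ± 6.22 and Shmt1 29.5 ± 10.6 CPM per kilobase. Psph, at 6.70 ± 0.479, and Aldh1l2, at 0.0164, were far below. Phgdh exceeded Shmt2, and Shmt2 exceeded Psat1, in 3 of 3 controls, while from Asns to Mthfd2 each gene exceeded the next in only 2 of 3 controls. The neighbours from Mthfd1 to Shmt1 lay within 1 SD of each other. With the longest transcript as length, Psat1 had 99.7 and Mthfd2 52.8 CPM per kilobase, and Mthfd2 came before Mthfd1, at 52.1, and Mthfd1l, at 45.4.

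The lines themselves differed in some members. In the 3-line fit, with treatment as a term, 0 of 9 members differed between lines, against 5.32% of all genes, and the smallest adjusted p was that of Mthfd1l (0.0665). Between lines 240 and 352 alone, 4 of 10 members differed, against 44.7% of all genes, a share near that background. These were Mthfd1l (edgeR adjusted p = 4.98e-07), Asns (0.00925), Mthfd2 (0.0113) and Mthfd1 (0.0212). Mthfd1l was higher in line 240, and Asns, Mthfd2 and Mthfd1 were higher in line 352, in controls and in treated cells alike.

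Further genes of the pathway were taken from 8 lists with 71 genes, of which 60 were tested in 3 lines and 61 in lines 240 and 352. Over 3 lines 0 of the 60 passed, with 8 at an unadjusted p below 0.05, and in lines 240 and 352, 9 rose and 4 fell. Over all genes, 570 of 10331 had an unadjusted p below 0.05 over 3 lines. In lines 240 and 352, 5.01% of all genes rose and 5.92% fell. Around 3-phosphoglycerate, where serine synthesis leaves glycolysis, both genes passed in lines 240 and 352. Pgk1, which makes it, fell by 1.23 on the log2 scale (SE 0.14, edgeR adjusted p = 0.000495) and Pgam1, which uses it in glycolysis, fell by 0.52 (SE 0.11, adjusted p = 0.0096). In line 242 the within-line log2 ratio of Pgk1 was 0.63, in the other direction, and that of Pgam1 -0.24. The fitted changes over 3 lines were -0.63 ± 0.46 for Pgk1 and -0.43 ± 0.15 for Pgam1.

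In lines 240 and 352, where 5.01% of all genes rose and 5.92% fell, 1 of the 13 folate cycle genes tested rose. This was Gart, which uses formyl groups in purine synthesis, at 0.50 ± 0.12 (edgeR adjusted p = 0.0184), with log2 ratios of 0.68, -1.84 and 0.35 in lines 240, 242 and 352. The signs are those of Mthfd1 and Shmt1, and folate cycle genes that did not pass, such as Atic, Slc19a1, Slc25a32 and Fpgs, had them too. Of the 3 methionine cycle genes tested, Mat2a, which makes S-adenosylmethionine, rose by 0.76 ± 0.13 (adjusted p = 0.00359), and its log2 ratio in line 242 was -1.29. Fitted over 3 lines, Gart had -0.16 ± 0.52 and Mat2a 0.14 ± 0.48. Of 12 genes of serine transport and use, Sptlc1, a subunit of the enzyme that joins serine to palmitoyl-CoA, rose by 0.605 ± 0.13 (adjusted p = 0.0134) and Gcat, a mitochondrial enzyme of threonine and glycine metabolism, fell, with -0.79 ± 0.23 (adjusted p = 0.0443). Their 3-line changes were 0.45 ± 0.18 for Sptlc1 and -0.93 ± 0.46 for Gcat, which had 0 counts in treated line 242. The 3 glycine cleavage genes tested and the 7 genes of aspartate, glutamine and asparagine had 0 calls in either fit. The smallest p values over 3 lines in these lists were those of Gcsh, at -0.15 ± 0.27, and Dld, at -0.11 ± 0.20, and of Asrgl1, at -0.44 ± 0.17, and Nars2, at 0.51 ± 0.29. Without line 242 these changes were 0.13 ± 0.13, 0.10 ± 0.10, -0.41 ± 0.13 and 0.23 ± 0.20 in the same order.

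The regulators' list of 14 genes holds Atf4 and other genes of the stress response it serves, with Myc, Nfe2l2 and Trp53. Of these 14, 3 rose and 1 fell in lines 240 and 352, beside 5.01% and 5.92% of all genes. Atf4 had 521, 637 and 3221 counts in the controls and 615, 194 and 4244 in the treated cells of lines 240, 242 and 352, and rose by 0.44 ± 0.11 (edgeR adjusted p = 0.0265). Scaled for depth it was higher in 3 of 3 lines, with log2 ratios of 0.60, 0.85 and 0.32. Atf5, a related stress factor, rose by 1.03 ± 0.24 (adjusted p = 0.0157) and Trp53, which encodes p53, by 0.46 ± 0.11 (adjusted p = 0.0164). In line 242 the log2 ratio was 1.66 for Atf5 and -0.44, in the other direction, for Trp53. Cebpg, a dimer partner of ATF4, fell, with -0.49 ± 0.14 (adjusted p = 0.0423), though its ratio in line 242 was 0.94. The fitted changes over 3 lines were 0.58 ± 0.17 for Atf4, 1.43 ± 0.36 for Atf5, 0.20 ± 0.23 for Trp53 and -0.04 ± 0.34 for Cebpg.

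Of the 7 other ATF4 targets, 3 rose in lines 240 and 352 and 0 fell, with a median of 0.94. Over all genes in that fit, 5.01% rose and 5.92% fell. Slc7a11, the cystine transporter, had 42, 19 and 49 counts in the controls and 379, 96 and 485 counts in the treated cells, a change of 3.37 ± 0.17 (edgeR adjusted p = 1.02e-06) that was positive in 3 of 3 lines. Sesn2, a stress-induced inhibitor of mTORC1, rose by 1.39 ± 0.24 (adjusted p = 0.00359) and Trib3, a pseudokinase that restrains ATF4, by 1.25 ± 0.22 (adjusted p = 0.00395). Over 3 lines none of these passed, Slc7a11 having the smallest adjusted p, 0.614. The fitted changes there were 3.80 ± 0.36 for Slc7a11, 1.94 ± 0.60 for Sesn2 and 2.09 ± 0.79 for Trib3. Of the targets that did not pass, Chac1 had 0.94, Slc3a2 0.34, Slc7a5 0.18 and Pck2 -0.02 in lines 240 and 352. Like the members, these lists were chosen with earlier results of these data known, and a difference between them and the members was not tested.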

How the data were processed

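Poly(A) RNA of the 6 libraries was sequenced in 2 lanes, and the authors deposited raw counts per gene in 12 files, 1 per library and lane. Per the labels the lanes are 1 library, so their counts were summed. A figure legend of the study speaks instead of separate control and treated cultures of each line. If the files were such cultures, each sum would pool 2 of them, and the counting intervals would leave out the spread between them. Processing notes of the submitters name HISAT2, HTSeq, edgeR and mm10, while the methods of the study name TopHat. For versions, the annotation and the strand setting, the sources used here give nothing. Members and lists were chosen with earlier results of these data known. Named genes are the 10 members, every listed gene past the threshold in either fit and, in lists without one, up to 2 genes with the smallest p.

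Counts were fitted in R 4.3.3 with edgeR 4.0.16 on all genes kept by filterByExpr, scaled by TMM, with the line as a block and Benjamini-Hochberg adjustment at a threshold of 0.05. The 10331 genes of the 3-line fit held 99.0% of all counts, and 11760 were tested in lines 240 and 352. The scripts were tested on simulated counts. Those had the same spread for every gene, no difference between lines and larger changes than the called members, so they do not vouch for those calls. Control and treated libraries share a cell line and were paired by it. Their deviations from the group means correlated across genes with r = 0.673 in line 240, 0.303 in line 242 and 0.789 in line 352. With 1 library per line and group, the 3-line fit had 2 residual degrees of freedom and the fit of lines 240 and 352 had 1. The spread was moderated across genes, which brought the median total to 5.02 and 12.7. Most of it thus came from other genes in both fits, the more so in the latter. Differences between lines were tested against the same spread.

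Ratios within a line were taken between TMM-scaled CPM values on the log2 scale, with an exact conditional binomial 95% interval. Such intervals, and the floor of 3 counts (0.218 CPM in the deepest and 4.96 CPM in the shallowest library), cover counting error only. Levels per kilobase used all exons of a gene in GENCODE vM21, in which 48108 of the 52535 symbols were found. Lanes were compared by chi-square, which per degree of freedom was 0.982 to 1.02 in lines 240 and 242 and 2.01 and 2.05 in line 352. The counting intervals of line 352 are therefore too narrow. Alternatives were DESeq2 1.42.0, its size factors, library totals, no block, the likelihood ratio test, limma 3.58.1 voom with sample weights, other filters, single lanes, each line left out, and the longest transcript as length.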

Additional observations from a re-analysis of the deposited data

Results flagged for a closer look

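By the counting intervals, lines differed in direction for 6 members and for 2 of the ratios. A line has 1 library per group, so these differences between lines were not tested. Most involve the treated library of line 242, with its 604984 counts. Lanes of line 352 differed by more than counting error, with a chi-square per degree of freedom of 2.01 and 2.05. Intervals of line 352 are therefore too narrow, and that of Mthfd2 there, 0.001 to 0.19, begins just above no change.

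The log2 change of Phgdh was 1.99 higher in line 240 than in line 242. For Shmt1 the difference was 2.83 between lines 240 and 242 and 2.66 between lines 352 and 242. For Mthfd1, the other cytosolic folate enzyme, it was 1.83 and 1.60 in the same order. The change of Shmt2 in line 240 exceeded that in line 242 by 1.38 and that in line 352 by 0.437. For Mthfd2 the change in line 352 exceeded that in line 240 by 0.594 and that in line 242 by 0.688. Asns went the other way, with a change in line 242 that exceeded line 240 by 0.993 and line 352 by 0.703. The differences between lines 240 and 352 in Shmt2 and Mthfd2 do not involve line 242.

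Within libraries, the change of Shmt2 over Shmt1 in line 242 exceeded that in line 352 by 1.71. For Mthfd1l over Mthfd1, line 242 exceeded line 240 by 2.46 and line 352 by 2.23.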

How the results depend on the processing

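Over 3 lines, the count of members called stayed at 0 under the 10 other settings for the block, scaling, test, filter and lane. Leaving out 1 line at a time gave 0 to 3, the 3 without line 242, and 0 to 4 members that differ between lines, the 4 without line 242. In lines 240 and 352 the 3 calls became 0 without the replicate block and 0 with DESeq2, 5 with the likelihood ratio test and 6 with voom, both with Aldh1l2, which was tested only through its treated libraries, 5 without a filter, and 1 with at least 10 counts in every library and in lane 2 alone. The count was 2 with library totals, 4 with DESeq2 size factors, which added Asns, and 2 in lane 1 alone. Mthfd1 passed in each of these but the fit without the block and DESeq2.

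Over 3 lines, the sign turned for Mthfd1 without the replicate block (0.0476), in lane 1 (0.0427), in lane 2 (0.0281) and with voom (0.37), and with voom for Phgdh (0.14) and Shmt1 (0.29). Leaving out a line gave -0.71 to 0.28 for Phgdh, -0.86 to 0.37 for Shmt1, -0.66 to 0.0344 for Shmt2, -0.43 to 0.45 for Mthfd1 and -0.36 to 0.0652 for Asns. In lines 240 and 352 Shmt2 turned to -0.0366 in lane 1. The other 105 changes over 3 lines kept their direction and side of the threshold, with 1 more newly past it, and so did 77 in lines 240 and 352, where 12 lost a call and 8 gained one. The change of Mthfd2 over Mthfd1 in line 240, -1.08, was -0.79 in lane 1 and -1.36 in lane 2, and in line 242, 0.66, it was 0.21 and 1.12. With the longest transcript as length, 7 of the 10 levels moved by more than 1 SD. The causes were not tested.

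Of all genes, voom called 327 higher and 474 lower over 3 lines, DESeq2 35 and 10, the likelihood ratio test 56 and 29, and the fit with no filter 260 and 52, at a median of 0.51, against 0 and 0. In lines 240 and 352, against 589 and 696, DESeq2 called 107 and 158, at least 10 counts 315 and 403, and lane 2 349 and 404. The fit without the block called 0 and 0, with 289 at an unadjusted p below 0.05. Library totals gave 520 and 497 and lane 1 473 and 598. The likelihood ratio test called 826 and 979, voom 860 and 974, and DESeq2 size factors 630 and 821, each of 11760 genes. Without a filter the calls were 765 and 963 of 24986 genes. Depth limits treated line 242 most, where the 10 members had 6 to 108 counts.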
